A study of Rattus norvegicus with 8 samples.

Results

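Pdgfa, Pdgfra, Tgfb2, Tgfbr3, Egfr and Kit, the PDGF, TGF-beta, EGF and KIT signalling genes examined here, are 6 of the 32623 Ensembl genes counted in purified rat retinal ganglion cells (RGCs). They were taken by symbol from the 1998 genes that could be paired with a name. All 6 passed the filter on low counts, Egfr only through its P11 libraries. Pdgfa, Tgfb2, Tgfbr3 and Egfr were higher at postnatal day 11 (P11), Pdgfra was higher at embryonic day 21 (E21), and Kit was also higher at E21 but by less than the fold threshold. Pdgfa was 4.03-fold higher at P11, while the RNA of its receptor Pdgfra fell to 0.419 of its E21 level.

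Cells were immunopanned from retinas of untreated Sprague Dawley rats, either embryos at E21 or pups at P11, in 4 independent litters per stage, which gave 8 libraries of ribosome-depleted RNA. In immunopanning, dissociated retinal cells pass over a plate that removes macrophages, and a plate coated with antibody against Thy1 then holds the RGCs. More papain was used to dissociate P11 retinas than E21 retinas, so stage and dissociation cannot be told apart. The question was how RGC gene expression differs between a stage of vigorous axon growth and a stage at which that capacity has declined.

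PDGF-A is a secreted growth factor whose dimers bring together PDGF receptor alpha chains, receptor tyrosine kinases that then phosphorylate each other and recruit adaptors to the Ras-MAP kinase and PI3-kinase routes. In the developing retina PDGF-A is known as the RGC signal that draws PDGF receptor-bearing astrocytes across the inner surface. The EGF receptor and KIT, the receptor for stem cell factor, use the same adaptors. TGF-beta 2 is secreted in a latent form and acts through receptor serine kinases and SMAD proteins, and the co-receptor betaglycan, encoded by Tgfbr3, presents it to them.

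Expression is given as TMM-normalised CPM, a gene's count relative to the library total after edgeR scaled the libraries so that most genes had equal levels. Fold changes are E21 over P11, so a negative log2 value is higher at P11, and SE is the standard error. A gene was called where the p of edgeR's quasi-likelihood test, adjusted by Benjamini-Hochberg over the 14043 genes tested, was under 0.01 and its log2 fold change lay beyond 1 or -1. Of all genes tested, 8.16% were called higher at E21 and 16.5% higher at P11, 24.7% in all, and in 71.3% the libraries of the stages did not overlap. The libraries held between 13899299 and 20116017 counted reads, so 3 counts correspond to between 0.152 and 0.219 CPM. CPM is not corrected for gene length, so levels are compared between stages and not between genes.

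The sequence before the start of 3 of the genes higher at P11 is shown, because these genes moved in the same direction and their windows lie outside the gene as RefSeq draws it on build GRCr8. Each line gives the 250 bases that end at the start site, 5′ to 3′ on the gene's strand, with a GC box (GGGCGG, or CCGCCC on the other strand) in capitals.
Pdgfa, chr12:20759116-20759365, plus strand: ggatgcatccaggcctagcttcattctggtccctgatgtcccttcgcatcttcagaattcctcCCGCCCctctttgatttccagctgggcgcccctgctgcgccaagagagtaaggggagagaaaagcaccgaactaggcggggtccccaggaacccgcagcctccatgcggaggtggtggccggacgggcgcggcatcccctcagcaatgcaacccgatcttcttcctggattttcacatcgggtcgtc
Tgfbr3, chr14:2634044-2634293, plus strand: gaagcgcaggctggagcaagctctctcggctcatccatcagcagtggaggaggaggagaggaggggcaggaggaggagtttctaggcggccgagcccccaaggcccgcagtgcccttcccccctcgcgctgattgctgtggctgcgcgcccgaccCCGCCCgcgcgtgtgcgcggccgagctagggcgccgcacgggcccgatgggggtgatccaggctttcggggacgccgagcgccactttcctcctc
Egfr, chr14:95378376-95378625, plus strand: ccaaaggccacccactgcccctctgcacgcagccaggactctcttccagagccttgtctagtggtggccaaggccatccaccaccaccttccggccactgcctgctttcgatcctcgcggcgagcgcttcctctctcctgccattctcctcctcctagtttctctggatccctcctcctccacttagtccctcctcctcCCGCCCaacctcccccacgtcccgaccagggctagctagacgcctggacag
GC boxes are letters that Sp1-type transcription factors bind, and the motif was found in the windows of these 3 genes and in that of Kit, 4 of the 6, against 30.5% of 33469 rat promoter windows of the same length. The half-site of the cAMP response element (TGACG, 18.2% of windows) and the TATA box (TATAAA, 12.9%) were in none of the 6 windows, and the E-box CACGTG (5.59%) was in that of Tgfb2 alone. Both strands were searched, and no matches in the 6 windows overlapped each other. GC made up 60.8% of the Pdgfa window, 71.2% of that of Tgfbr3 and 63.6% of that of Egfr, with a median of 51.2% over all windows. For the genes not printed, it was 47.2% for Pdgfra, 70.8% for Kit and 61.6% for Tgfb2. These matches describe letters in RefSeq sequence, whose start sites may not be the ones used in RGCs. The windows of Pdgfra, Kit and Tgfb2 reach into the gene's own span and are not printed.

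Pdgfa (ENSRNOG00000001312) encodes the A chain of PDGF. Its level was 20.7, 22.2, 20.3 and 21.7 CPM in E21 replicates 1 to 4, and 81.5, 83.03, 96.8 and 81.0 CPM in P11 replicates 1 to 4. Every P11 library was thus far above every E21 library, with between 1212 and 1525 reads at P11 against 297 to 438 at E21. Mean expression was 21.2 ± 0.898 CPM (SD, n = 4) in E21 cells and rose to 85.6 ± 7.54 CPM (SD, n = 4) in P11 cells. The log2 fold change was -2.01 (SE 0.07, adjusted p = 7.08e-14, edgeR), and 9.28% of the genes tested changed by more in either direction. Among the E21 libraries the SD was 4.23% of the mean, the smallest relative spread of any of the 6 genes at that stage. P11 replicate 3 stood above the other P11 libraries, and without it the log2 fold change was -1.96. In bulk libraries such as these, fewer cells of a type and less RNA per cell cannot be told apart.

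Pdgfra (ENSRNOG00000002244) encodes the PDGF receptor alpha chain, the receptor that PDGF-A binds, and it went the other way. E21 replicates 1 to 4 held 13.2, 14.9, 10.5 and 14.7 CPM, and P11 replicates 1 to 4 held 5.04, 5.56, 5.33 and 6.27 CPM. The stages did not overlap, although E21 replicate 3 lay well below the other E21 libraries. Mean levels were 13.3 ± 2.05 and 5.55 ± 0.526 CPM at E21 and P11 (SD, n = 4), a log2 fold change of 1.26 (SE 0.13, adjusted p = 1.06e-07, edgeR). With the change tested against the fold threshold itself by edgeR's glmTreat, the adjusted p was 0.0429 and the gene was not called.

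**Figure D1:**
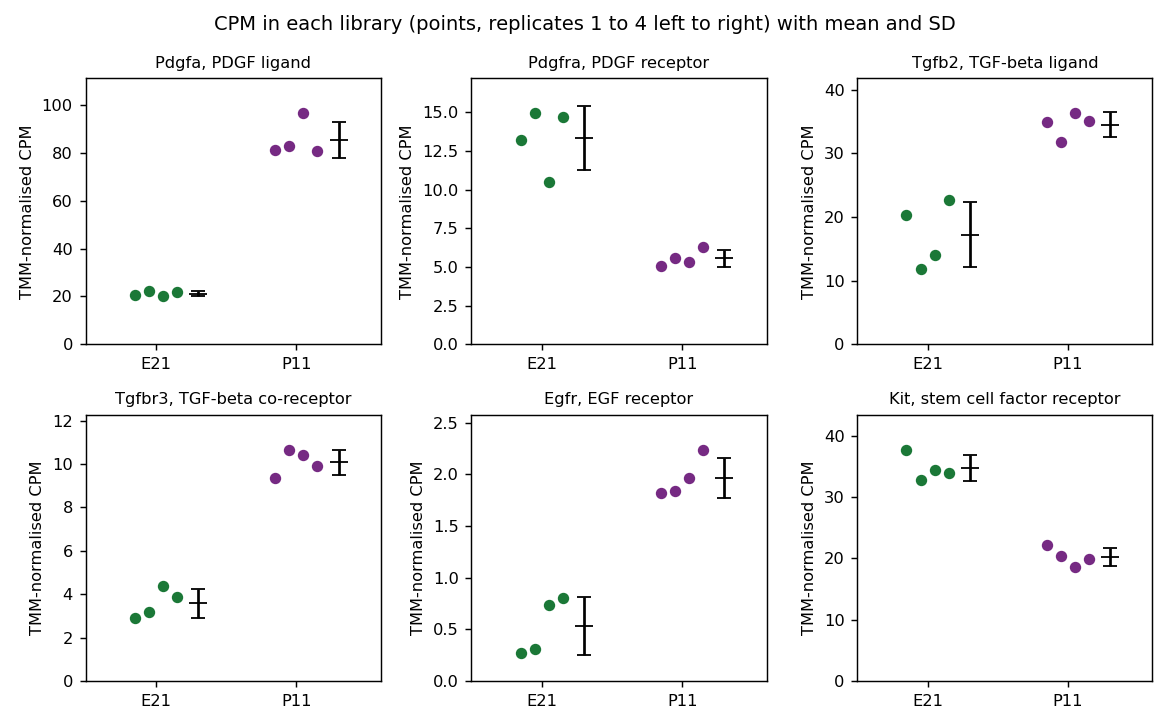
TMM-normalised CPM of the 6 genes in each library, with E21 in green, P11 in purple, replicates 1 to 4 from left to right and the mean and SD over 4 libraries as black bars. Pdgfa at P11 sits between 81.0 and 96.8 CPM against 20.3 to 22.2 CPM at E21, while Pdgfra falls from 10.5 to 14.9 CPM at E21 to 5.04 to 6.27 CPM at P11, and no panel shows an overlap of the stages.

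The balance of ligand and receptor RNA within a library therefore shifted. The log2 ratio of Pdgfa to Pdgfra CPM was 0.65, 0.57, 0.95 and 0.56 in E21 replicates 1 to 4, and 4.01, 3.90, 4.18 and 3.69 in P11 replicates 1 to 4. The stage means differed by -3.26 (E21 minus P11), a value that contains no length correction and is read here only as a change between stages. Scaling cancels in this ratio, so it was the same under the 3 other scalings tried, and it was between -3.35 and -3.19, E21 minus P11, with each library left out in turn.

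Kit (ENSRNOG00000002227) encodes the receptor for stem cell factor and is, like Pdgfra, a receptor tyrosine kinase of class III. On chromosome 14 of the RefSeq assembly no protein-coding gene lies between Kit and Pdgfra. Kit was at 37.8, 32.8, 34.5 and 34.01 CPM in E21 replicates 1 to 4 and at 22.2, 20.5, 18.5 and 19.96 CPM in P11 replicates 1 to 4. All E21 libraries were above all P11 libraries, at means of 34.8 ± 2.12 and 20.3 ± 1.504 CPM (SD, n = 4). The difference was larger than the replicate error (log2 fold change 0.78, SE 0.07, adjusted p = 2.31e-08, edgeR), but it was under the fold threshold in each of the 17 other settings tried. Kit and Pdgfra thus had the same direction, and whether their changes differ in size was not tested.

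Egfr (ENSRNOG00000004332) encodes the EGF receptor and had the fewest reads of the 6 genes. It had 4, 6, 14 and 11 reads in E21 replicates 1 to 4 and 27, 31, 31 and 41 reads in P11 replicates 1 to 4. In the same order these were 0.268, 0.304, 0.735 and 0.804 CPM in E21 libraries and 1.81, 1.83, 1.97 and 2.24 CPM in P11 libraries. E21 replicates 1 and 2 were close to the level that 3 counts give, and replicates 3 and 4 were higher. Each P11 library was above each E21 library. Egfr passed the filter on low counts only through its P11 libraries, where it is high, so this separation is a description only. The means were 0.528 ± 0.281 CPM and 1.96 ± 0.194 CPM (SD, n = 4), a log2 fold change of -1.90 (SE 0.31, adjusted p = 2.60e-05, edgeR). The SD at E21 was 53.3% of the mean, so the size of this change is the least certain of the 6, and it ranged from -2.15 to -1.69 with each library left out.

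Tgfb2 (ENSRNOG00000002418) encodes TGF-beta 2, one of the mammalian TGF-beta ligands. Its level was 20.4, 11.8, 14.1 and 22.6 CPM in E21 replicates 1 to 4 and 34.9, 31.8, 36.3 and 35.1 CPM in P11 replicates 1 to 4. The P11 libraries lay close together and above every E21 library, whereas E21 replicates 2 and 3 lay well below replicates 1 and 4. Those 2 libraries were also the most deeply sequenced at E21, with 20116017 and 19499343 counted reads against 15233499 and 13899299, and the part of depth in the spread was not tested. Mean Tgfb2 was 17.2 ± 5.12 CPM in E21 cells and 34.5 ± 1.93 CPM in P11 cells (SD, n = 4), with a log2 fold change of -1.03 (SE 0.19, adjusted p = 0.00111, edgeR). This call rested on the low E21 libraries, since the log2 fold change was -0.88 without E21 replicate 2 and -0.94 without E21 replicate 3, both under the fold threshold (adjusted p = 0.000115 and 0.00358, edgeR). Tested against the fold threshold itself, the adjusted p was 0.848 (glmTreat).

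Tgfbr3 (ENSRNOG00000002093) encodes betaglycan, the co-receptor with high affinity for TGF-beta 2. E21 replicates 1 to 4 held 2.88, 3.19, 4.35 and 3.88 CPM and P11 replicates 1 to 4 held 9.34, 10.7, 10.4 and 9.93 CPM. Thus the lowest P11 library was far above the highest E21 library. Betaglycan RNA rose from 3.58 ± 0.666 CPM to 10.1 ± 0.579 CPM (SD, n = 4), 2.81-fold, with a log2 fold change of -1.49 (SE 0.14, adjusted p = 3.13e-08, edgeR). It was called in all 17 other settings.

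Ligand and co-receptor RNA of the TGF-beta pair rose together, unlike the PDGF pair. The pairs differ in kind, since betaglycan is a co-receptor and Pdgfra encodes the receptor itself. Of 4 TGF-beta family receptors or co-receptors listed, Tgfbr3 alone could be named, so the signalling receptors were not analysed. The log2 ratio of Tgfb2 to Tgfbr3 CPM was between 1.69 and 2.82 in the E21 libraries and between 1.58 and 1.90 in the P11 libraries, so the stages overlapped.

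**Figure D2:**
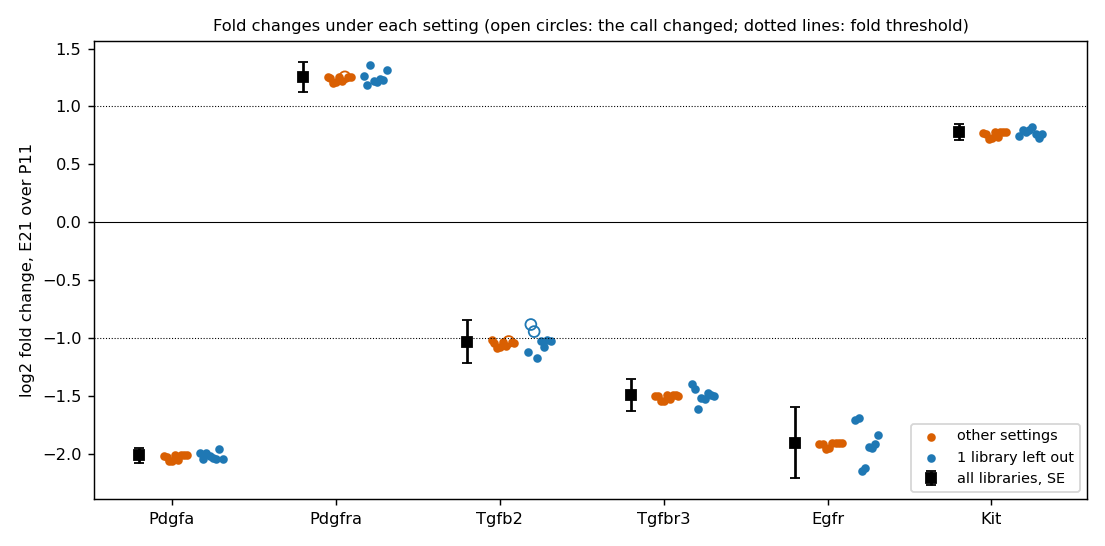
Log2 fold change (E21 over P11) of each gene with all libraries (black squares, bars 1 SE), under the other settings (orange) and with 1 library left out (blue), where open circles mark a changed call and dotted lines the fold threshold. Pdgfa, Tgfbr3 and Egfr stay below -1 in every setting, Kit stays between 0.72 and 0.82, and the open circles belong to Pdgfra and Tgfb2.

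RNA of genes used as markers of other cell types differed between the stages as well, and which cells it came from was not tested. The paper reports that RGC markers were much more abundant in these cells than markers of several other retinal cell types. Of 9 RGC markers, Rbfox3, Uchl1 and Gap43 could be named, and together they held 3355 to 3497 CPM at E21 and 2047 to 2176 CPM at P11. Gap43, the growth cone protein gene, was called higher at E21, and Rbfox3 and Uchl1 were not called. Mural cell markers summed to between 5.35 and 7.17 CPM at E21 and between 306 and 603 CPM at P11, with 5 of 5 named markers called higher at P11. Fibroblast markers summed to 25.7 to 29.2 CPM and 290 to 550 CPM, with 9 of 10 called higher at P11 and Pi16 called higher at E21. Endothelial markers summed to 20.1 to 24.1 CPM and 29.6 to 43.0 CPM, with Flt1 and Flt4 called higher at P11 out of 7, and Notch4 made up most of the E21 sum. Astrocyte and Müller glia markers summed to 24.6 to 33.7 CPM at E21 and 1.91 to 3.49 CPM at P11, most of it Gja1 at E21, while S100b was called higher at P11 and Gfap had at most 3 reads in any library. Oligodendrocyte lineage markers summed to 183 to 201 CPM and 73.4 to 90.7 CPM, of which Gpr37 was 163 and 65.3 CPM on average. The sums of photoreceptor, bipolar, amacrine and cycling progenitor markers were higher at P11. Their log2 ratios of E21 over P11 were -2.40, -1.02, -1.27 and -0.85. Of the named markers, 4 of 6, 1 of 4, 1 of 2 and 3 of 7 were called higher at P11, in that order. Of all genes tested, 16.5% were. Prox1 of the amacrine list was called higher at E21 (log2 fold change 1.18). Prkca made up most of the bipolar sum at both stages, and Grm6 of that list was higher at E21 but not called (0.82). For each of these 10 sums the two-sided exact permutation test over 4 libraries against 4 gave p = 0.0286, the smallest it allows (0.0314 after Benjamini-Hochberg adjustment over 11 lists). A value this small means only that the stages did not overlap, which also held for 71.3% of all genes tested. Microglia and macrophage markers summed to at most 2.22 CPM in any library (exact permutation p = 0.0571).

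**Figure D3:**
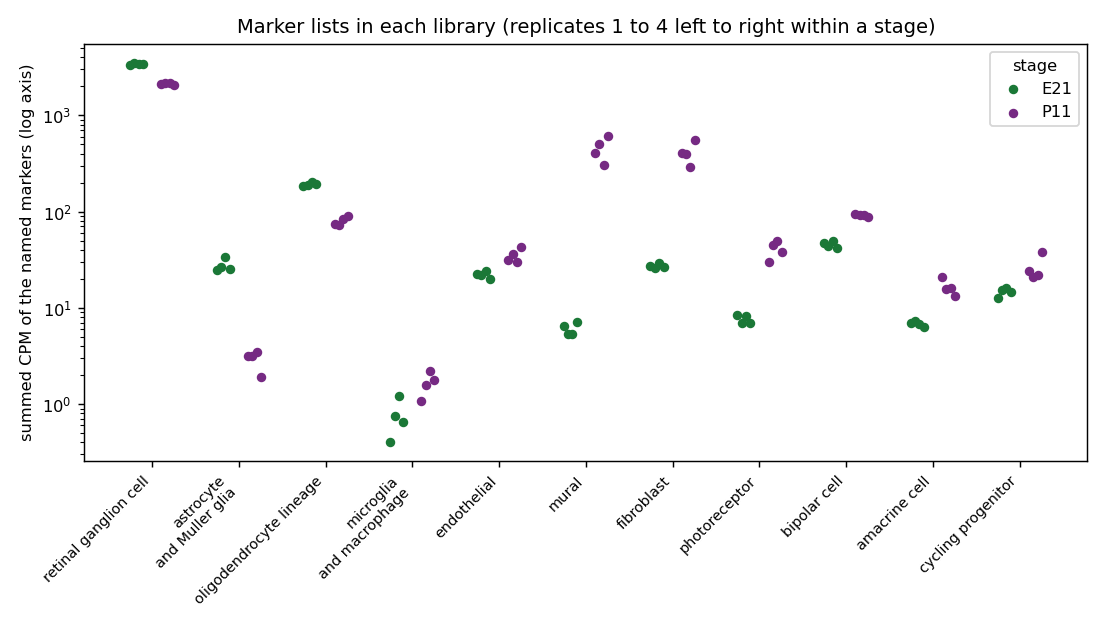
Summed CPM of the named markers of each cell type in each library, on a log axis, with E21 in green and P11 in purple. Mural markers rise from 5.35 to 7.17 CPM at E21 to 306 to 603 CPM at P11, and the summed astrocyte and Müller glia markers, most of which is Gja1 at E21, go from 24.6 to 33.7 CPM to 1.91 to 3.49 CPM.

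Set beside these sums, the P11 libraries did not rank alike. P11 replicate 3 had the lowest mural sum (306 CPM), the lowest fibroblast sum (290 CPM) and the highest Pdgfa (96.8 CPM). P11 replicate 4 had the highest mural sum (603 CPM), the highest fibroblast sum (550 CPM), the lowest Pdgfa (81.0 CPM), and the highest Egfr (2.24 CPM) and Pdgfra (6.27 CPM) among the P11 libraries. Pdgfa in P11 replicate 1 was close to this, at 81.5 CPM. The other genes did not follow this order, since Tgfb2 was highest in P11 replicate 3 (36.3 CPM), Tgfbr3 in replicate 2 (10.7 CPM) and Kit in replicate 1 (22.2 CPM). Such ranks rest on 4 libraries, with 27 to 41 reads of Egfr and 75 to 115 of Pdgfra in each. The part of counting error in them was not tested. Without P11 replicate 4, the log2 fold change was -2.04 for Pdgfa, -1.84 for Egfr, -1.504 for Tgfbr3, -1.03 for Tgfb2 and 1.32 for Pdgfra, each still called. Pdgfra, which fibroblasts, astrocytes and oligodendrocyte precursors carry, was lower at P11, where the fibroblast sum was higher and the glial sum (most of it Gja1 at E21) and oligodendrocyte lineage sum lower. The part of other cells in the changes of the 6 genes was not tested.

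The wider pathway was examined with a list of 89 further genes of these routes, of which 51 could be paired with a name and 45 had enough counts to test. Of the 45, 5 were called higher at E21 and 11 higher at P11, which is 35.6% against 24.7% of all genes tested. Their median log2 fold change was 0.17, against 0.0042 over all genes tested. With p under 0.05 before adjustment, 23 of the 45 had the higher level at E21 and 16 at P11, where 5425 and 5436 of the 14043 genes tested did. No sign changed for the 16 called genes in any of the 17 other settings, and 13 of them kept their call in every setting that tested them. The others were Rasal1, Chrdl1 and Cited1, none of them called by glmTreat. Rasal1 was also not called without E21 replicate 3 (log2 fold change -0.95) or without P11 replicate 1 (-0.97), nor Cited1 without E21 replicate 3 (-0.98).

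Of the EGF receptor ligands, Btc, which encodes betacellulin, measured 2.45 ± 0.619 CPM in E21 cells and 1.67 ± 0.172 CPM in P11 cells, with overlapping libraries and an adjusted p of 0.0303 (edgeR). Areg, which encodes amphiregulin, had at most 2 reads in any E21 library and between 1 and 10 at P11, and did not pass the filter on low counts. Bmp3, a ligand of the TGF-beta family, had at most 4 reads at E21 and between 9 and 21 at P11, and did not pass it either. When all genes with a read were tested, Areg and Bmp3 were called higher at P11, although the Areg libraries of the stages overlapped. That fit gave far smaller adjusted p for well-counted genes too (Pdgfa 3.00e-76 in place of 7.08e-14, edgeR). With so few reads, these 2 calls are a description only. The other EGF family ligands, the other PDGF chains, stem cell factor and the other ERBB receptors were not analysed here, because their IDs could not be paired with names.

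Among 14 adaptors and effectors tested, 2 were called higher at E21 and 4 higher at P11, 42.9% against 24.7% of all genes tested. Sh2b2, an adaptor of receptor tyrosine kinases, fell between E21 and P11 from 93.9 ± 5.72 to 23.5 ± 2.43 CPM (log2 fold change 1.999, SE 0.07), and Rps6ka6, a ribosomal S6 kinase of the RSK family, fell from 37.8 ± 2.32 to 10.3 ± 1.22 CPM. Grb10, an adaptor that binds activated insulin and growth factor receptors, rose from 46.2 ± 3.48 to 133 ± 6.10 CPM (log2 fold change -1.53, SE 0.05). Prkca, a protein kinase C that acts below phospholipase C and is also on the bipolar cell marker list, rose 2.28-fold. The ETS transcription factors Elk3 and Etv5, both known as targets of MAP kinase signalling, also rose, with log2 fold changes of -2.91 and -1.53. Elk3 is also known from endothelial cells, and its level at E21 was 0.814 ± 0.218 CPM. With 12 to 15 reads per E21 library, Elk3 passed the filter on low counts only through its P11 libraries, where it is high. The Src family kinase gene Fyn had the largest change among those not called, at 0.78, with Grb2, the adaptor that couples receptors to Ras, at 0.42.

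Among 14 negative regulators and receptor trafficking genes, Socs3 and Hip1 were called higher at E21 and Rasal1 and Deptor higher at P11. That is 28.6% called, against 24.7% of all genes tested. Socs3, an inhibitor of cytokine receptor signalling, fell from 5.92 ± 0.344 to 1.45 ± 0.220 CPM (log2 fold change 2.03, SE 0.17). Hip1, an endocytic adaptor that stabilises receptor tyrosine kinases, fell from 360 ± 39.6 to 147 ± 12.2 CPM. Deptor, which binds and inhibits mTOR, rose 2.84-fold, and Rasal1, a Ras GTPase-activating protein, rose 2.21-fold from a low level. Rasa4, another such protein, had the largest change not called, at 0.79, and the ubiquitin ligase gene Cblb, which tags activated receptors for degradation, was at 0.76.

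Extracellular regulators of the TGF-beta family divided by gene. Of 8 tested, the BMP antagonist Chrdl1 was called higher at E21, with 1.94 ± 0.614 CPM against 0.831 ± 0.266 CPM later (log2 fold change 1.25, SE 0.29). Fmod, a matrix proteoglycan that binds TGF-beta, and Wfikkn2, which binds myostatin and related ligands, were called higher at P11, with log2 fold changes of -3.43 and -2.002. With at most 0.608 and 0.603 CPM in any E21 library, Fmod and Wfikkn2 passed the filter on low counts only through their P11 libraries. Chrdl1, with 9 to 18 reads per P11 library, passed it only through its E21 libraries, where it is high. Fmod is also one of the fibroblast markers above. Chrd, which encodes the BMP antagonist chordin, had the largest change not called, at 0.99.

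Of 8 intracellular components and targets, 2 were called higher at P11 and none higher at E21. That is 25% called, near the 24.7% of all genes tested. Cited1, a transcriptional co-regulator that binds SMAD4, rose 2.31-fold, from 2.56 ± 0.805 to 5.82 ± 0.440 CPM (log2 fold change -1.20, SE 0.20, adjusted p = 4.11e-05, edgeR). Smurf1, a ubiquitin ligase for SMADs and their receptors, had the largest change not called, at 0.88, higher at E21.

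**Figure D4:**
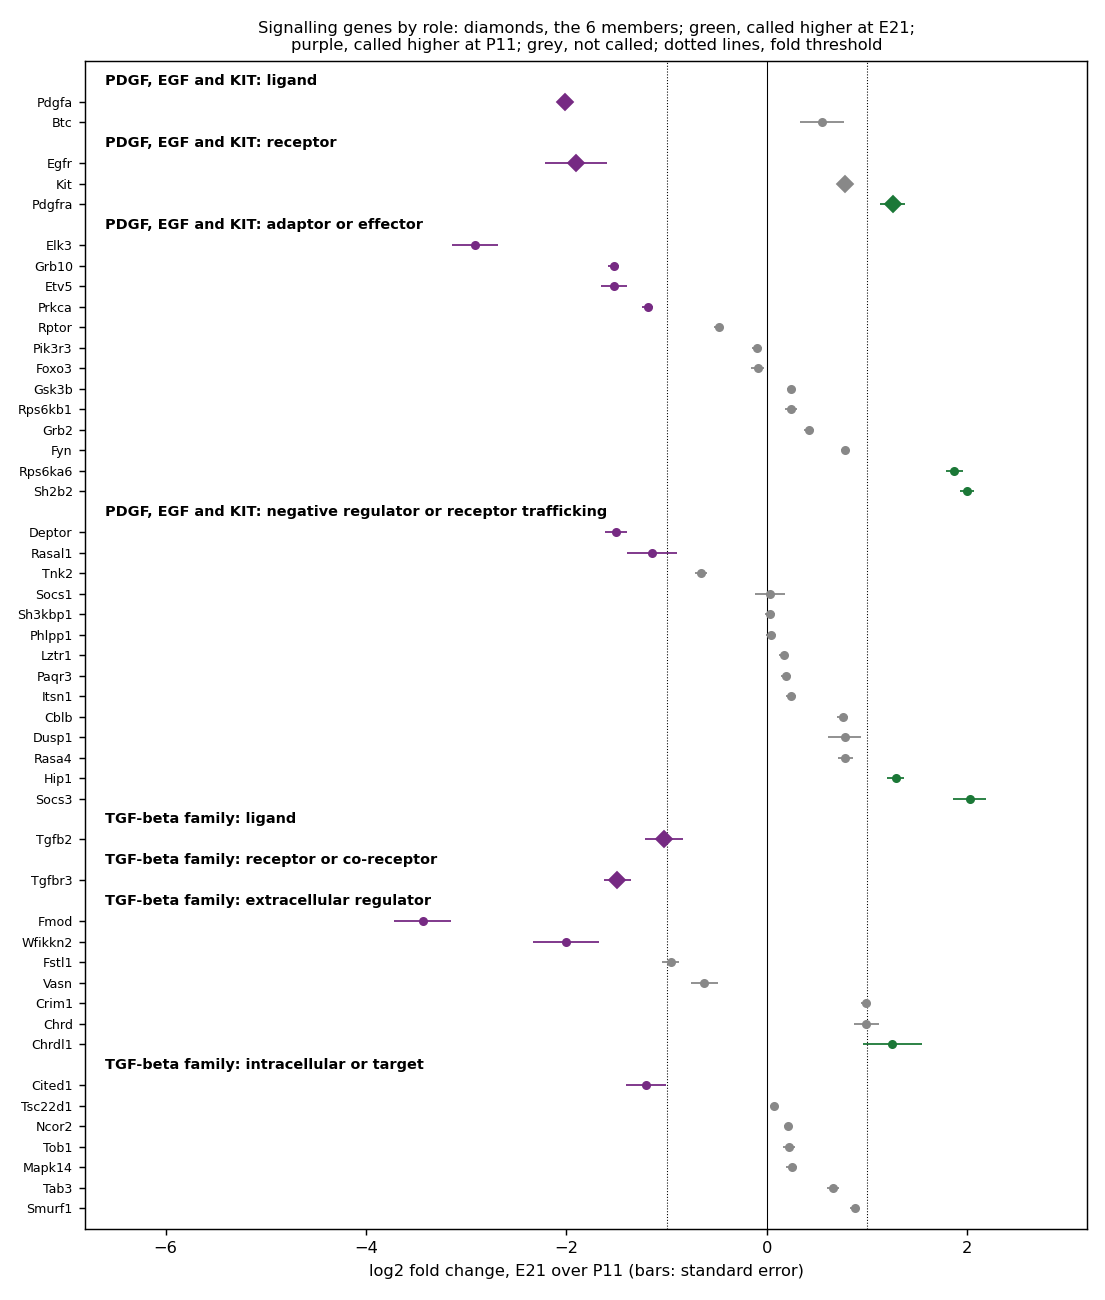
Log2 fold change (E21 over P11, bars 1 SE) of 48 tested pathway genes by role, with diamonds for the 6 genes and colours for the calls. Purple and green points stand side by side within several roles, with Fmod at -3.43 and Elk3 at -2.91 farthest to the left and Socs3 at 2.03 and Sh2b2 at 1.999 farthest to the right. Fmod and Elk3 passed the filter on low counts only through their P11 libraries.

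The named genes with the closest profiles were found by the root mean square distance between log2 CPM over the 8 libraries, after each gene's mean was subtracted, among 1773 other named genes tested. Closest to Pdgfa were the GABA receptor subunit gene Gabrb1 (distance 0.0660, log2 fold change -1.97), the sarcoglycan gene Sgcb (0.0737) and the kinase gene Cdkl2 (0.0796), where the median gene was at 1.04. Pdgfra was nearest to Rhobtb1 (0.109), Tspan8 (0.133) and Heatr6 (0.135). Bri3 (0.0660), Cggbp1 (0.0811) and Ankrd13a (0.0824) were nearest to Kit. For Tgfbr3 the nearest were Rnf6 (0.161), Flot1 (0.162) and Slc7a3 (0.173). Tgfb2, with its wide spread at E21, had no profile closer than that of Evi5 (0.208), followed by Lnx1 (0.231) and Parm1 (0.238). Egfr had the most distant neighbours of the 6, Chst7 (0.252), Tm4sf19 (0.281) and Tst (0.321). The median gene was at 0.651 for Pdgfra, 0.435 for Kit, 0.813 for Tgfbr3, 0.661 for Tgfb2 and 1.02 for Egfr. All these distances rest largely on the difference between the stages, which the 8 libraries share, and are given as a description.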

How the data were processed

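Per the labels and the study's methods, the authors used Cutadapt 1.16 for trimming, PRINSEQ for quality control, STAR 2.5.3a for alignment (build Rnor_6.0) and HTSeq 0.6.1 for counting. They deposited raw counts per Ensembl gene for each of 8 libraries (4 E21, 4 P11), neither normalized nor pooled. The annotation release and strand setting are not given in the sources used here, so overlapping genes may share reads. The 5 HTSeq rows that name no gene held between 51.7% and 58.4% of records and were left out.

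Stages were taken from the sample titles. Counts were filtered with filterByExpr, scaled by TMM and tested with edgeR 4.0.16 (glmQLFit with robust estimation, R 4.3.3). SE was taken as the absolute log2 fold change over the root of the F statistic. The scripts were tested on simulated data. Alternatives were DESeq2 1.42.0, other scalings, filters and thresholds, the replicate block and each library left out. A floor of 3 counts was used, which covers counting error only, since reads had no molecular identifiers. SD and SE include the spread between libraries. Depth per library was 13899299 to 20116017 reads.

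Symbols came from the ID and name columns of the study's gene table, of which 1998 rows were at hand. Its expression and test columns were not used. The members, pathway list and marker lists were chosen with earlier results of these data known, and the promoter motifs after the members' values were seen. The genes named are the 6 members, pathway genes called (a few are counted but not reported here), the largest change not called in each role, the 3 closest profiles to each member, and markers called or with over 10 counts in every library of a stage. Areg, Bmp3, Grb2, Cblb, Crim1, Fstl1 and Gfap were named after their values were seen. Promoter sequence is from RefSeq on GRCr8, where all 6 symbols matched.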

Additional observations from a re-analysis of the deposited data

Results flagged for a closer look

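Pdgfa in P11 replicate 3, at 96.8 CPM, lay apart from the other P11 libraries, which were between 81.0 and 83.03 CPM. Its gap to the nearest of them was 0.871 of the range, above Dixon's critical value for 4 samples. It was the only one of 38 sets of 4 values so examined to pass, and chance passes about 1 in 20. The same library had the lowest summed mural and fibroblast markers at P11. Whether this bears on its Pdgfa level was not tested.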

How the results depend on the processing

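Pdgfa, Tgfbr3 and Kit kept their direction and their call or lack of it in all 17 other settings, and Egfr in all 16 that tested it, since the filter of at least 10 counts in every library removed it. With glmTreat the log2 fold changes of Pdgfra (1.26) and Tgfb2 (-1.03) were unchanged by construction but not called, and 668 genes in place of 1146 were called higher at E21. With at least 10 counts in every library, which left 12532 genes, 1523 in place of 2316 were called higher at P11. With each library left out in turn, Tgfb2 ranged from -1.18 to -0.88 and was not called without E21 replicate 2 or E21 replicate 3. The further pathway genes called ranged from 4 to 6 higher at E21 and from 8 to 15 higher at P11 over all settings. With the replicate number as a block, 1147 genes were called higher at E21 and 2316 higher at P11, and no call among the 6 genes changed. The deviations of libraries with the same number correlated at -0.02, 0.08, -0.03 and 0.07, and not every library correlated best with its own number. Correlations this small do not decide whether the numbers pair the libraries, since a weak shared part could be missed. Depth limits Egfr most, at 4 to 14 reads per E21 library.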

Other observations

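Values of further extracellular regulators of BMP and TGF-beta ligands lay just inside the fold threshold and were read after the calls were known. Chrd measured 8.74 ± 0.775 CPM in E21 cells and 4.38 ± 0.367 CPM in P11 cells (SD, n = 4). Its log2 fold change of 0.99 (SE 0.12) was not called in 14 of the 17 other settings, but was called without E21 replicate 4 (1.04), P11 replicate 1 (1.03) or P11 replicate 4 (1.01). Crim1, a transmembrane protein that binds BMPs, held 80.3 ± 1.92 CPM in E21 cells and 40.5 ± 1.19 CPM in P11 cells. Its log2 fold change was also 0.99 (SE 0.05), and it was called in none of the 17 other settings. Fstl1, a secreted follistatin-like protein that binds BMPs, had the other sign, with 77.2 ± 6.99 CPM and 150.2 ± 16.6 CPM (log2 fold change -0.96, SE 0.08), and was likewise not called in 14 of the 17, but was called without E21 replicate 2 (-1.04) and under both library size and upper-quartile scaling. Genes of BMP-binding proteins thus lay on both sides of 0.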
